A study of Mus musculus with 23 samples.

Results

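The muscle actin isoforms are encoded by 4 mouse genes: Acta1, the skeletal muscle alpha-actin, Acta2, the smooth muscle alpha-actin, Actc1, the cardiac alpha-actin, and Actg2, the smooth muscle gamma-actin of the gut. They are 4 of the 8131 genes named on the array, and all probe sets annotated to their symbols were taken, 5 of 12502. Acta1 (100381_at), Acta2 (93100_at) and Actg2 (93102_f_at) had 1 probe set each and Actc1 had 2 (101028_i_at and 101029_f_at). Probe sets with an _f_at or _i_at ending were treated as ones that may also read transcripts of related genes, here of other actins. Such an ending is carried by 3 of the 5, both of Actc1 and the one of Actg2. All 5 passed the filter on low values, which kept 9643 probe sets.

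Total RNA of mouse embryonic stem (ES) cells was hybridised to 23 arrays, and each array gave 1 linear intensity per probe set. The cells came from 4 lines, E100 (-/-), E81 (-/-), E99 (+/-) and wild-type E14 (E14wt), and all were transfected, with SRF-VP16, with the control plasmid SRFdM-VP16 or with an empty vector, 72 hours before RNA was taken. SRF-VP16 fuses serum response factor (SRF) to the strong transactivation domain of the viral protein VP16. Each of the 12 groups had 2 arrays, except E100 with vector, which had 1. Which gene +/- and -/- refer to, and what dM stands for, are not said in the labels, which also call the E99 line E14-99 on its vector arrays. The -/- genotype rests on 2 lines, E100 and E81. The +/- and wild-type genotypes rest on 1 line each, so that for them genotype and line cannot be told apart. The labels do not say whether duplicates were separate cultures, so p-values here measure the spread between these samples. RNA was from whole cultures, so a higher value from more cells of a type and from more RNA per cell cannot be told apart.

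Muscle actins polymerise into the thin filaments on which myosin pulls, and each muscle type uses its own set, while ES cells build their cytoskeleton mainly from the cytoplasmic beta- and gamma-actins, Actb and Actg1. SRF binds CArG boxes, short elements with an A and T rich core between CC and GG, and muscle actin promoters are its classical targets. Its partners, the myocardin-related transcription factors (MRTFs), are held back by free actin monomers, so that the pool of actin feeds back on actin genes. Nearby MCAT elements are bound by TEAD factors in muscle genes.

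RefSeq's promoter table (build GRCm38.p6) holds 3 of the 4 genes, Acta1, Acta2 and Actc1. Their 250 bases before the annotated transcription start are shown because SRF is the factor that was supplied; all 3 lie on the minus strand and are printed 5′ to 3′ along the gene. They cover chr8:123894776-123895025 (Acta1), chr19:34255374-34255623 (Acta2) and chr2:114052876-114053125 (Actc1), just upstream of the first exon, and capitals mark CArG box matches with at most 1 core base other than A or T.
Acta1: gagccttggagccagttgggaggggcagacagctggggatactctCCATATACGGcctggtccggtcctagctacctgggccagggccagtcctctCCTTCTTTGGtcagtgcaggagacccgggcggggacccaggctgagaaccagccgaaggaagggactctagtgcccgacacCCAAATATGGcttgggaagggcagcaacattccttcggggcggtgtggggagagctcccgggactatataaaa
Acta2: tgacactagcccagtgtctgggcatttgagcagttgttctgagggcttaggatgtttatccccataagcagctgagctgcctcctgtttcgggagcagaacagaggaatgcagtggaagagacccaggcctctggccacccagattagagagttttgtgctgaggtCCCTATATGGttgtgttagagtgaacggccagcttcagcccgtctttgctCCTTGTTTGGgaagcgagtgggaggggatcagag
Actc1: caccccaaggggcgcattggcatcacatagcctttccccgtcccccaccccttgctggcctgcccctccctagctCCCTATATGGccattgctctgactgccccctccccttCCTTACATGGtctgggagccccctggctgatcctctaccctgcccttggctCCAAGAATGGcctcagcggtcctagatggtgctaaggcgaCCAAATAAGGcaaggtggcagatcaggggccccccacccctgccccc
The Acta1 window held 3 such matches, 1 of them with a core of A and T only, which starts 73 bases before the transcription start. The Actc1 window held 4, with its single A and T core starting at -47, and the Acta2 window held 2, at -84 and -34, each with 1 other core base. Of 32851 promoter windows of this length in the table, several of which can belong to the same gene, 8.59% held at least 1 match of this kind, 0.67% at least 2 and 0.0457% at least 3. A core of A and T only was present in 1.47%. MCAT, searched as CATTCCT on either strand, matched once in Acta1 at -46 and once in Acta2 at -147 on the opposite strand, did not match in the Actc1 window, overlapped no CArG match, and was present in 4.51% of windows. These are letter matches and do not show binding.

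**Figure D1:**
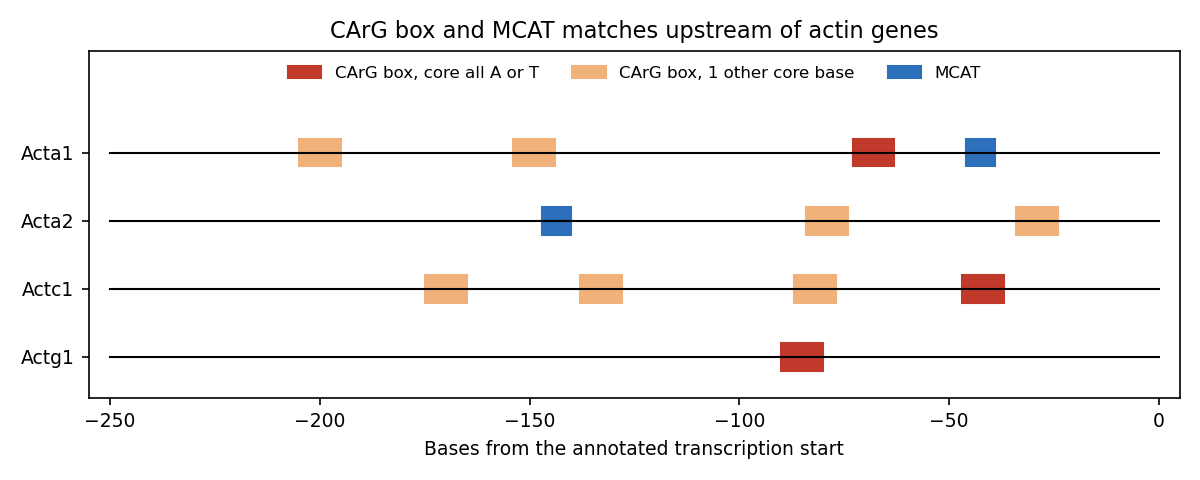
Positions of CArG box and MCAT matches in the 250 bases before the annotated start (x axis, bases from the start) of Acta1, Acta2, Actc1 and, as the cytoplasmic gamma-actin, Actg1. Dark red boxes have a core of A and T only, orange boxes have 1 other core base and blue boxes are MCAT. Acta1 has 3 CArG matches, Acta2 2, Actc1 4 and Actg1 1.

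Of the deposited intensities 29.1% were at or below 0, and array medians ran from 54 to 209. For ratios and tests, values under a floor of 58, the 40th percentile of all values, were set to 58 and taken to log2. ES cells were checked by Pou5f1, which read 5994 to 29982 over the 23 arrays, while of 19 muscle markers on the array 6 (Smtn, Nkx2-5, Myl2, Ryr2, Myf5 and Tnnc2) were at the floor on all 23 arrays and 4 were above it on all, namely Des, Mylpf (359 to 3363), Myod1 (158 to 584) and Gata4 (182 to 711). The other 9 were above the floor on some arrays, Cnn1 on 18 and Chrna1 on 19 of them. The 2 E14wt control-plasmid arrays numbered 2 stood apart from those numbered 1: summed over 7 trophoblast markers they read 14036 to 14524, against 1437.9 to 1759, and over 4 smooth muscle markers 769 to 1241, against 229 to 334.5. Array 1 of E81 with SRFdM-VP16 had the lowest Gapdh 5′ over 3′ ratio (-0.93 on the log2 scale) and the lowest median Spearman correlation with the other arrays (0.844).

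Acta1, the thin-filament actin of skeletal muscle, was near or below the floor in most control cultures and bright on all 8 SRF-VP16 arrays. With SRF-VP16 it read 20188 and 8834 in E100, 8013 and 7355 in E81, 890 and 607 in E99, and 3770 and 3498 in E14wt. With SRFdM-VP16 it read 26 and 24 in E100, -387 and -253 in E81, 16 and -38 in E99, and 49 and 1007 in E14wt. With vector it read -122 in E100, 66 and -55 in E81, 27 and 15 in E99, and 15.4 and 799 in E14wt. Of the 15 control-plasmid arrays 12 were at the floor, and the only readings above 66 were the E14wt arrays numbered 2. Among the SRF-VP16 groups the order of means was E100, E81, E14wt and E99.

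Acta2, the actin of vascular smooth muscle and of myofibroblasts, split the arrays in much the same way. With SRF-VP16 it read 10432 and 13779 in E100, 9860 and 11179 in E81, 1492 and 2484 in E99, and 10591 and 2574 in E14wt. With SRFdM-VP16 it read -191 and -56 in E100, -147 and -409 in E81, -22 and -140 in E99, and -52 and 7302 in E14wt. With vector it read -387 in E100, -226 and -246 in E81, -149 and -127 in E99, and -242.3 and 7463 in E14wt. Outside the E14wt arrays numbered 2, all 13 control arrays were below 0, from -409 to -22. The SRF-VP16 groups of E100, E81 and E14wt overlapped, and E99 had the lowest mean.

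The cardiac actin Actc1 is the main alpha-actin of the heart and is also made in embryonic skeletal muscle, and its 2 probe sets, called Actc1 _i_at and Actc1 _f_at from here on, disagreed on whether control cultures held a signal. By Actc1 _i_at, SRF-VP16 cultures read 972 and 393 in E100, 285 and 212 in E81, 200 and 82 in E99, and 143 and 454 in E14wt. By the same probe set the 8 SRFdM-VP16 arrays lay between -74 and 47 and the 7 vector arrays between -76.9 and 9, so that all 15 were at the floor. This probe set was dim throughout, and its SRF-VP16 values did not overlap with the controls.

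By the _f_at probe set, Actc1 read 11618 and 6261 with SRF-VP16 in E100, 7105 and 7759 in E81, 2152 and 1456 in E99, and 2193 and 1619 in E14wt. With SRFdM-VP16 it read 1367 and 433 in E100, 789 and 295 in E81, 1275 and 1329 in E99, and 1792 and 1737 in E14wt. With vector it read 775 in E100, 657 and 657 in E81, 936 and 705 in E99, and 1343 and 1867 in E14wt. All 15 control arrays were above the floor by this probe set, from 295 to 1867. The SRF-VP16 arrays of E100 and E81 read 6261 to 11618, while those of E99 and E14wt overlapped with controls. Over the 23 arrays the 2 probe sets correlated with Pearson's r of 0.79, a description over arrays that share lines and plasmids. Whether _f_at reads transcripts of other actins was not tested.

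Actg2, the gamma-actin of intestinal smooth muscle, was bright on every array by its only probe set, an _f_at one. With SRF-VP16 it read 9321 and 10458 in E100, 9118 and 8559 in E81, 9119 and 8412 in E99, and 9257 and 3242 in E14wt. With SRFdM-VP16 it read 6201 and 3925 in E100, 2846 and 1658 in E81, 4822 and 7632 in E99, and 7393 and 9414 in E14wt. With vector it read 6894 in E100, 4033 and 4077 in E81, 7566 and 6363 in E99, and 8023.3 and 8504 in E14wt. The SRF-VP16 arrays stayed between 8412 and 10458 except for E14wt array 2, and the lowest group means were those of E81 with SRFdM-VP16 and with vector. Most neighbours in the order of the 12 group means overlapped.

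**Figure D2:**
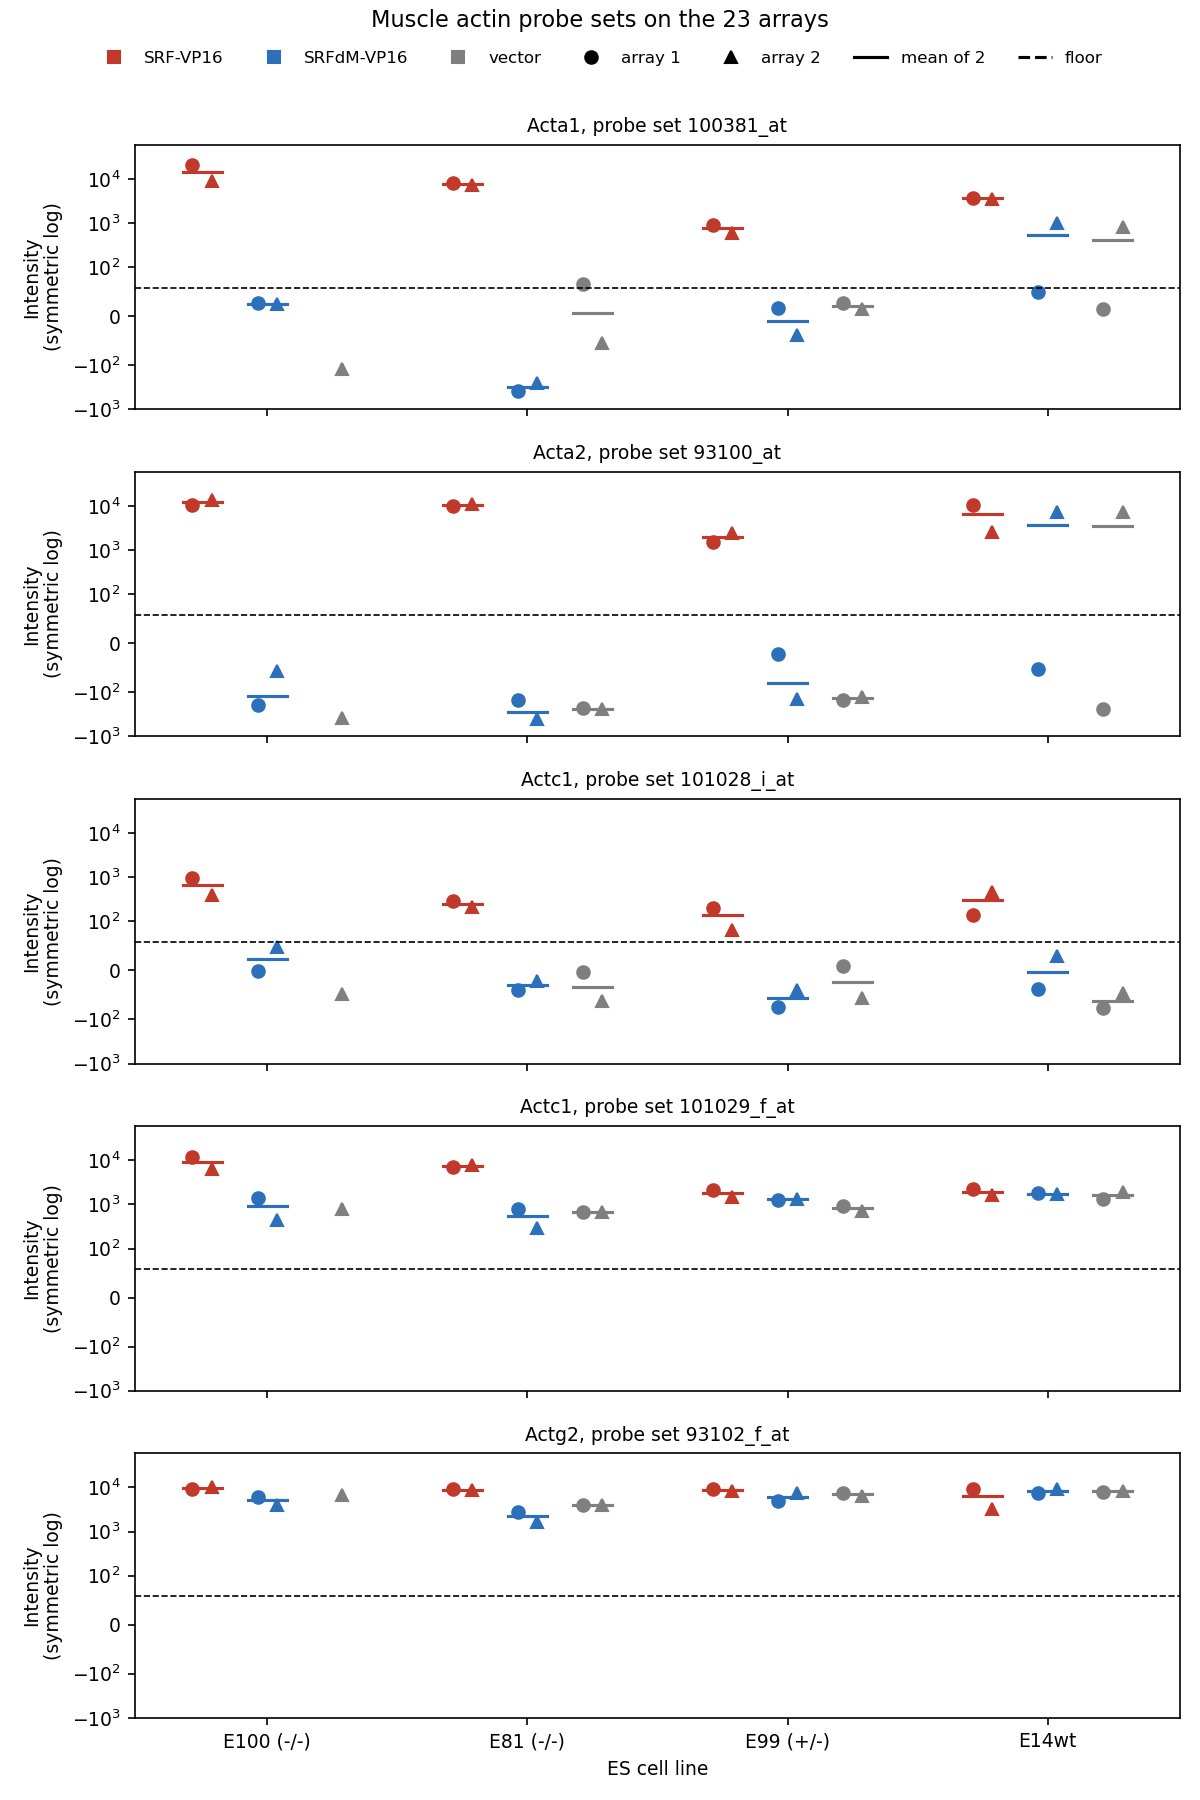
Intensity of the 5 muscle actin probe sets (y axes, symmetric log scale, linear near 0) on each of the 23 arrays, by ES cell line (x axis) and plasmid (colour); circles are array 1, triangles array 2, bars the mean of 2 arrays and the dashed line the floor of 58. Acta1 and Acta2 are bright with SRF-VP16 in every line and at or near the floor with the control plasmids except on the E14wt arrays numbered 2, while Actc1 _f_at and Actg2 are above the floor on all arrays.

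What the activator changed where neither allele is wild type was asked in E81 and E100 together, with 4 SRF-VP16 arrays and 4 SRFdM-VP16 arrays. All 5 muscle actin probe sets rose, against 2.48% of all probe sets called higher, and their median log2 change was 3.71, against 0.04 over all probe sets tested. Changes are log2 ± SE with limma's Benjamini-Hochberg adjusted p over all 9643. Acta1 averaged 11098 ± 6090 with SRF-VP16 and -148 ± 207 with SRFdM-VP16 (SD, n = 4 each), a rise of at least 175-fold (7.45 ± 0.81, adjusted p = 0.000251). Acta2 averaged 11313 ± 1731 and, with SRFdM-VP16, -201 ± 150 (SD, n = 4 each), a rise of at least 193-fold (7.60 ± 1.40, adjusted p = 0.0088). "At least" is written where every SRFdM-VP16 array was at the floor.

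Actc1 rose at least 6.72-fold by _i_at (2.75 ± 0.36, adjusted p = 0.00101), with means of 466 ± 346 under SRF-VP16 and -3.5 ± 37.1 under SRFdM-VP16 (SD, n = 4 each). By _f_at it rose 13.1-fold (3.71 ± 0.36, adjusted p = 8.96e-05), with means of 8186 ± 2369 and, under SRFdM-VP16, 721 ± 478 (SD, n = 4 each). Actg2 had the smallest rise, 2.85-fold (1.51 ± 0.29, adjusted p = 0.0102), with means of 9364 ± 797 under SRF-VP16 and 3658 ± 1932 under SRFdM-VP16 (SD, n = 4 each). For each of the 5 all SRF-VP16 arrays were above all SRFdM-VP16 arrays, which held for 4.93% of all probe sets. The Actg2 call was lost with vector in place of SRFdM-VP16 (0.82, adjusted p = 0.209), after division by array medians (1.13, adjusted p = 0.0957) and without array 2 of E100 with SRFdM-VP16 (1.35, adjusted p = 0.0521). The Actc1 _i_at call was lost with a floor at the 60th percentile (0.52, adjusted p = 0.348).

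Some markers listed for other cell types moved with these rises. Summed over 7 trophoblast markers, the -/- arrays read 9329 to 24376 with SRF-VP16 and 420 to 1500 with SRFdM-VP16, and 4 of the 7 were higher on all SRF-VP16 arrays, against the 4.93% of all probe sets. Those called were the keratins Krt7 (4.30 ± 0.41), Krt8 (3.61 ± 0.57) and Krt18 (4.91 ± 0.89), and Tpbpa (0.85 ± 0.11), above the floor on 3 of the 23 arrays. Cdx2 (0.22 ± 0.26, adjusted p = 0.798) and Eomes (0.58 ± 0.55, adjusted p = 0.739) were not called by limma's test, and Hand1 was above the floor on 1 array. Over 6 extraembryonic endoderm markers the -/- arrays read 6692 to 16444 with SRF-VP16 and 1620 to 5630 with SRFdM-VP16, with no overlap. Of these Col4a1, a basement membrane collagen, was the only 1 called (2.68 ± 0.55, adjusted p = 0.0165), and Afp and Sox17 were above the floor on 2 and 4 of the 23 arrays. Of 4 smooth muscle markers 2 were tested and not called, Cnn1 (2.81 ± 0.82, adjusted p = 0.102) and Des (1.44 ± 0.36, adjusted p = 0.0531). Smtn was at the floor on all 23 arrays and Myh11 was above it on 1. Summed over the 4, the -/- arrays read 3293 to 7339 with SRF-VP16 and 648 to 947 with SRFdM-VP16. Over 8 cardiac markers they read 339 to 868 with SRF-VP16 and 748 to 817 with SRFdM-VP16, over 7 skeletal muscle markers 1162 to 2081 and, with SRFdM-VP16, 881 to 3073, over 8 fibroblast or feeder markers 2994 to 9922 and, with SRFdM-VP16, 5218 to 10578, and over 11 ES cell markers 38684 to 64505 and, with SRFdM-VP16, 58013 to 109035. Of the ES cell markers, Klf2 (-2.43 ± 0.35, adjusted p = 0.002) and Fgf4 (-1.15 ± 0.22, adjusted p = 0.0117) were called lower and no other was called. Of these 11, 5 had an unadjusted p under 0.05, against 1294 of all 9643 probe sets. Their median log2 change was -0.60, against 0.05 over all named genes. Whether cells of the other listed types were present, and their part in the actin values, was not tested.

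Each -/- line was then taken alone, 2 arrays against 2. In E81, Acta1 (at least 132-fold, 7.05 ± 1.15, adjusted p = 0.0112), Actc1 _f_at (15.4-fold, 3.94 ± 0.51, adjusted p = 0.0022) and Actg2 (4.07-fold, 2.02 ± 0.40, adjusted p = 0.0376) rose by limma's test. These are 3 of 5, against 0.944% of all probe sets called higher in E81. Acta2 (7.50 ± 1.98, adjusted p = 0.0957) and Actc1 _i_at (2.08 ± 0.51, adjusted p = 0.0785) did not pass. In E100, Acta1 (at least 230.2-fold, 7.85 ± 1.15, adjusted p = 0.00313) and both Actc1 probe sets rose, _i_at by 3.41 ± 0.51 (adjusted p = 0.00386) and _f_at by 3.47 ± 0.51 (adjusted p = 0.00334). These are again 3 of 5, against 0.757% called higher in E100, while Acta2 (7.69 ± 1.98, adjusted p = 0.0875) and Actg2 (1.001 ± 0.40, adjusted p = 0.321) did not pass. All SRF-VP16 arrays were above all SRFdM-VP16 arrays for each of the 5 in both lines, as for 31.9% of all probe sets in E81 and 14.9% in E100. The Actg2 call in E81 was lost under 19 of 37 other settings (adjusted p up to 0.44), among them vector as the control (1.12, adjusted p = 0.277) and division by array medians (1.18, adjusted p = 0.281). The Actc1 _i_at call in E100 was lost with a floor at the 60th percentile (1.05, adjusted p = 0.141), with the inverse hyperbolic sine in place of a floor (adjusted p = 0.0813) and in a fit of only the arrays compared (adjusted p = 0.344).

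The 2 -/- lines were compared with each other by the difference in their SRF-VP16 effects, E81 minus E100. None of the 5 probe sets passed limma's test, against 0.145% called over all probe sets. Of the 5, 0 had an unadjusted p under 0.05, against 1040 of all 9643 probe sets. The difference was -0.80 ± 1.62 for Acta1 (95% interval -4.30 to 2.70), -0.19 ± 2.80 for Acta2 (-6.21 to 5.83) and -1.33 ± 0.73 for Actc1 _i_at (-2.90 to 0.24). It was 0.47 ± 0.73 for Actc1 _f_at (-1.09 to 2.04) and 1.02 ± 0.57 for Actg2 (-0.21 to 2.26). These intervals allow differences of several fold either way for Acta1 and Acta2. Without array 1 of E81 with SRFdM-VP16, or without either E81 array with SRF-VP16, the count called in E81 was 1 in place of 3.

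In E99, which carries +/-, SRF-VP16 arrays were above SRFdM-VP16 arrays for all 5 probe sets, as for 29.5% of all probe sets, and 0 of 5 passed limma's test, against 0.0415% called over all. At an unadjusted p under 0.05 there were 3, against 432 of all 9643 probe sets. The changes were 3.66 ± 1.15 for Acta1 (adjusted p = 0.619), 5.05 ± 1.98 for Acta2 (adjusted p = 0.907), 1.14 ± 0.51 for Actc1 _i_at, 0.44 ± 0.51 for Actc1 _f_at and 0.53 ± 0.40 for Actg2. For Acta2 the E99 means were 1988 ± 701 with SRF-VP16 and -81 ± 83.4 with SRFdM-VP16 (SD, n = 2 each).

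In E14wt, 0 of 5 passed limma's test, against 0.0207% called over all probe sets. Of the 5, 2 had an unadjusted p under 0.05, against 346 of all 9643 probe sets. Acta1 differed by 3.91 ± 1.15 (adjusted p = 1), Acta2 by 3.004 ± 1.98, Actc1 by 2.14 ± 0.51 (_i_at, adjusted p = 0.931) and 0.09 ± 0.51 (_f_at), and Actg2 by -0.61 ± 0.40. All SRF-VP16 arrays were above all SRFdM-VP16 arrays for Acta1 and Actc1 _i_at, as for 16.7% of all probe sets, and the other 3 overlapped.

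These values rest on the E14wt control arrays numbered 2, on which Acta1 read 1007 and 799 and Acta2 7302 and 7463. Without both, which leaves only array 1 of E14wt with SRFdM-VP16, the E14wt changes were 5.97 for Acta1 and 6.49 for Acta2. The arrays were singled out because these actins were high on them, so that larger changes in E14wt follow by construction. So does a smaller shared spread of Acta1 and Acta2, with smaller p-values in the other lines. In E99 the changes of 3.66 for Acta1 and 5.05 for Acta2 stayed as they were, and both passed (adjusted p = 0.00648 each), since all groups share 1 estimate of the spread. Acta2 then also passed in E81 (adjusted p = 4.8e-05) and E100 (adjusted p = 4.43e-05), and Actg2 in E81 did not (adjusted p = 0.0554). On average the E14wt control arrays numbered 2 had Krt18 at 8505.5, against 482.6 on those numbered 1, and Krt8 at 5400.5, against 960. Krt7 averaged 170 against -126.4, Cdx2 76.5 against -41 and Eomes 125 against 155.9. Tpbpa (-5.5 against -103.2) and Hand1 (-241 against -359) averaged below the floor on both. Of the trophoblast markers 5 of 7 were higher on both than on both numbered 1, as for 25.5% of all 12436 probe sets. Of the ES cell markers 6 of 11 were lower, as for 16.1%. The part of this difference in the actin values was not tested.

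**Figure D3:**
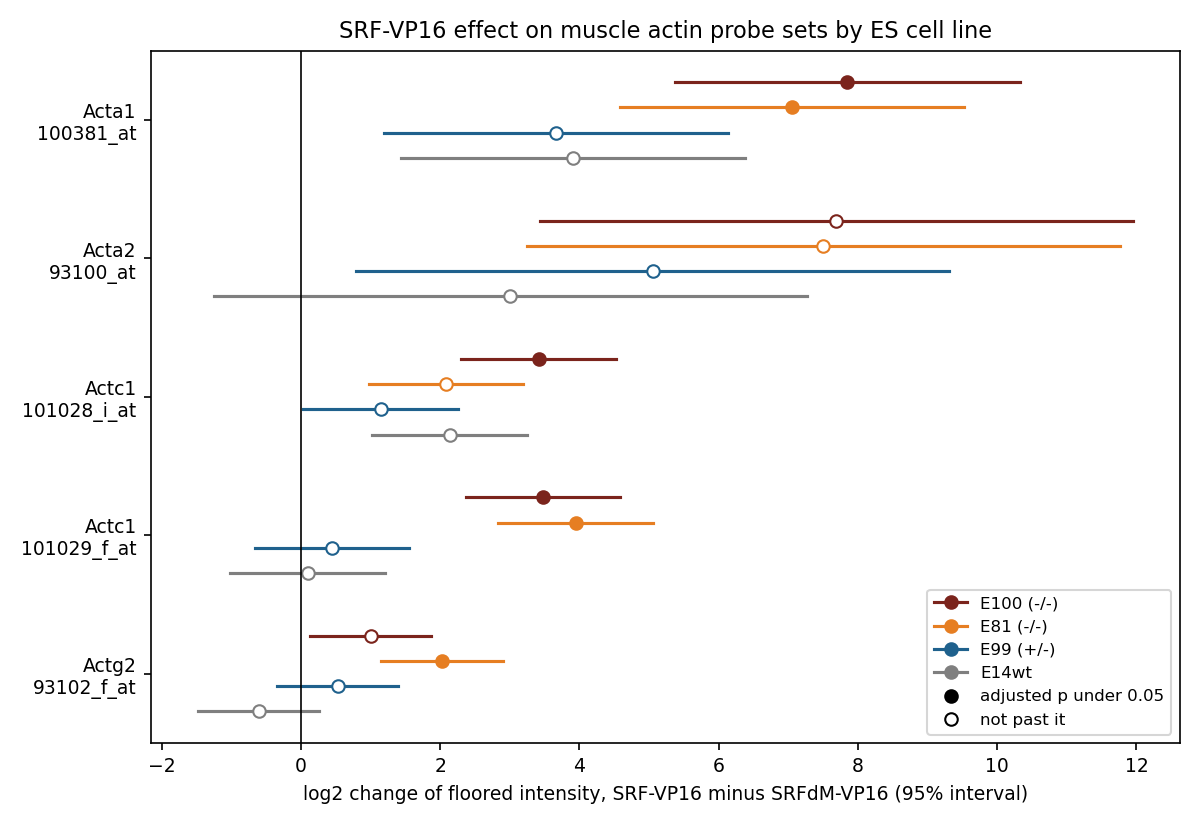
SRF-VP16 effect on each muscle actin probe set in E100, E81, E99 and E14wt (x axis, log2 change of floored intensity, SRF-VP16 minus SRFdM-VP16, with 95% interval). Filled points have an adjusted p under 0.05 and open points do not. The effect on Actc1 _f_at is 3.47 and 3.94 in the -/- lines against 0.44 in E99 and 0.09 in E14wt, while the Acta2 intervals are wide in every line.

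Whether the effect of SRF-VP16 differed by genotype was tested directly, as the mean effect in E81 and E100 minus that in E99 and E14wt. Actc1 _f_at differed by 3.44 ± 0.51 (adjusted p = 0.0139), the only 1 of 5 that passed limma's test, against 0.135% of all probe sets called higher. Acta1 differed by 3.66 ± 1.15 (adjusted p = 0.333), Acta2 by 3.57 ± 1.98 (adjusted p = 0.79), Actc1 _i_at by 1.11 ± 0.51 (adjusted p = 0.691) and Actg2 by 1.55 ± 0.40 (adjusted p = 0.214). In all, 4 had an unadjusted p under 0.05, against 697 of all 9643 probe sets. Without the E14wt control arrays numbered 2 the difference was 3.45 for Actc1 _f_at (adjusted p = 0.0508) and 2.63 for Acta1 (adjusted p = 0.0463), and with vector as the control it was 2.79 for Actc1 _f_at (adjusted p = 0.0577). Without array 1 of E14wt with SRF-VP16, Actg2 passed as well (1.93, adjusted p = 0.024). Actg1, whose transcript this kind of probe set could also read, had a difference of 2.01 ± 0.20 in the same test (adjusted p = 0.00045).

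With SRF-VP16 present, the -/- lines were set against E14wt, 4 arrays against 2. None of the 5 passed limma's test, against 0.456% called over all probe sets. Of the 5, 2 had an unadjusted p under 0.05, against 929 of all 9643 probe sets. Acta1 averaged 11098 ± 6090 in the -/- lines (SD, n = 4) and 3634 ± 192 in E14wt (SD, n = 2), a difference of 1.48 ± 0.99 (adjusted p = 0.72). Actc1 _f_at averaged 8186 ± 2369 in the -/- lines (SD, n = 4) and 1906 ± 406 in E14wt (SD, n = 2), a difference of 2.08 ± 0.44 (adjusted p = 0.0714). For these 2 all -/- arrays were above both E14wt arrays, as for 10.6% of all probe sets. Acta2 (1.10 ± 1.71), Actc1 _i_at (0.61 ± 0.45) and Actg2 (0.77 ± 0.35, adjusted p = 0.505) overlapped. Actc1 _f_at passed when any 1 of the SRFdM-VP16 arrays of E81 and E100 or array 2 of E100 with SRF-VP16 was left out (adjusted p from 0.0265 to 0.0403).

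With the control plasmids, 7 -/- arrays were set against 4 E14wt arrays. Again 0 of 5 passed limma's test, against 0.083% called over all probe sets. Of the 5, 4 had an unadjusted p under 0.05, against 609 of all 9643 probe sets. Actg2 averaged 4233 ± 1811 in the -/- lines (SD, n = 7) and 8334 ± 852 in E14wt (SD, n = 4), a difference of -0.997 ± 0.26 (adjusted p = 0.256). All -/- arrays were below all E14wt arrays for Actg2, as for 0.259% of all probe sets. Actc1 _f_at averaged 710.4 ± 341 in the -/- lines (SD, n = 7) and 1685 ± 234 in E14wt (SD, n = 4), a difference of -1.34 ± 0.33 (adjusted p = 0.216). Acta1 differed by -1.95 ± 0.73 and Acta2 by -3.50 ± 1.26, and without the E14wt arrays numbered 2 these values were 0.02 and 0. Actc1 _i_at was at the floor on all these arrays.

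The 2 control plasmids were compared over the 4 lines, 8 SRFdM-VP16 arrays against 7 vector arrays. None of the 5 passed limma's test, against 0.799% called over all probe sets. Of the 5, 0 had an unadjusted p under 0.05, against 1345 of all 9643 probe sets. The differences were 0.02 ± 0.61 for Acta1, -0.004 ± 1.05 for Acta2, 0 ± 0.27 for Actc1 _i_at, 0.10 ± 0.27 for Actc1 _f_at and -0.39 ± 0.21 for Actg2. The 95% interval for Actg2 was -0.85 to 0.07, and the median over all probe sets was -0.20.

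The genes whose patterns were most like each muscle actin were found by Pearson's r of floored log2 intensity over the 23 arrays, among 6812 other named genes, with no test. The arrays share lines and plasmids. For Acta1 they were Krt19 (r = 0.976), a keratin of simple epithelia, Gata3 (0.974), a zinc-finger transcription factor, and Krt7 (0.97), another simple epithelial keratin. For Acta2 they were Igf2 (0.985), a fetal growth factor, Gsn (0.965), the actin-severing protein gelsolin, and Tagln (0.964), an actin-binding protein of smooth muscle. Acta1 and Acta2 correlated with each other at 0.959.

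For Actc1, by _f_at, those nearest included Sfn (0.884), the epithelial 14-3-3 sigma protein, and Crabp2 (0.875), a retinoic acid binding protein. For Actg2 the 3 nearest were Wdr1 (0.818), a cofactor of actin filament disassembly, Junb (0.771), an AP-1 subunit, and Actg1 (0.747). Over the 12 group means the 3 nearest of Acta1 were the same genes, and those of Actc1 were Csrp1, Dsp and Lgals1. Those of Acta2 were then Igf2, Krt19 and Gsn, without Tagln. Those of Actg2 were Wdr1, Nabp1 and Rnh1, without Junb and Actg1. Over the 23 arrays Actg2 correlated with Acta1 at 0.491, with Acta2 at 0.552 and with Actc1 at 0.703.

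**Figure D4:**
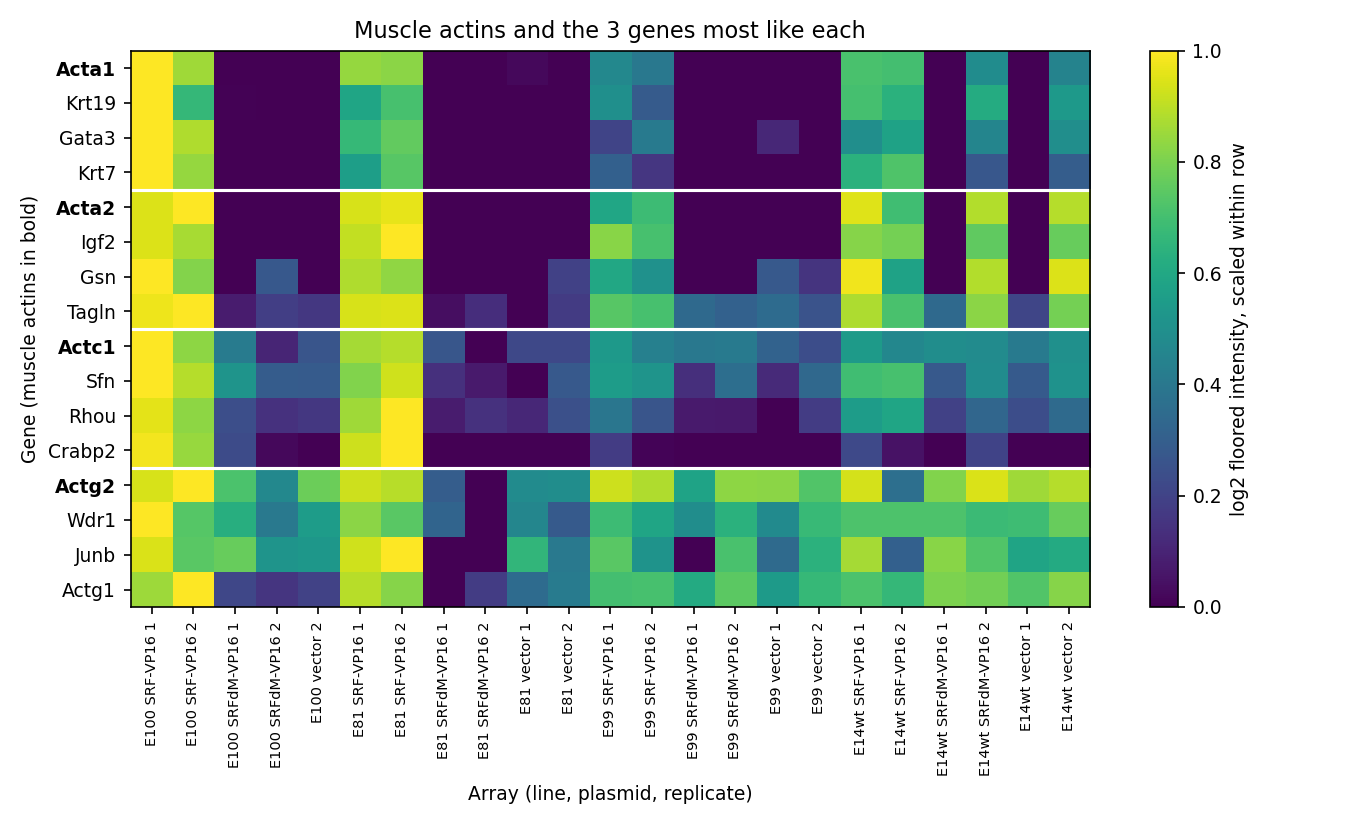
Floored log2 intensity of the 4 muscle actins (bold; Actc1 by _f_at) and the 3 genes most like each (y axis) on the 23 arrays (x axis), scaled within each row from 0, its lowest array, to 1, its highest. SRF-VP16 arrays are brightest for Acta1 and Acta2 and their neighbours, the E14wt control arrays numbered 2 stand out from those numbered 1 in these rows, and the Actg2 block is bright on most arrays.

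Other genes of the pathway were read by their brightest probe set in the -/- comparison. Of 34 listed smooth muscle and actin cytoskeleton genes 27 were tested, and 9 rose and 0 fell, against 2.48% of all probe sets called higher, with a median of 0.69 against 0.05 over all named genes. The 3 with the smallest adjusted p were Actg1 (1.91 ± 0.14, adjusted p = 7.21e-06), Tagln (7.61 ± 1.00, adjusted p = 0.000928) and Fhl2, a LIM-domain cofactor (3.36 ± 0.47, adjusted p = 0.00149). Actb, named here after its values were seen and read by an _f_at probe set that may also read other actins, differed by 0.76 ± 0.36 (adjusted p = 0.395). In E99 and in E14wt 0 of the 27 were called by limma's test, against 0.0415% and 0.0207% of all probe sets. At an unadjusted p under 0.05 there were 3 in E99 and 1 in E14wt, against 432 and 346 of all 9643 probe sets.

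Actg1, the cytoplasmic gamma-actin, had lower control levels in the -/- lines. With SRF-VP16 it read 31974 and 41452 in E100, 34211 and 30227 in E81, 24584 and 24829 in E99, and 25143 and 23026 in E14wt. With SRFdM-VP16 it read 10381 and 9375 in E100, 7159 and 9812 in E81, 26649 and 20906 in E99, and 29243 and 28474 in E14wt. In the 2 -/- lines all SRF-VP16 arrays were above all SRFdM-VP16 arrays, and in E99 and E14wt the groups overlapped or lay the other way. Its share in the Actg2 and Actc1 _f_at values was not tested.

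Of 32 listed striated sarcomere genes, which build the filaments around skeletal and cardiac actin, 17 were tested, 2 rose and 0 fell, against the same 2.48%, with a median of 0.36 against 0.05 over all named genes. They were Tnnc1, the slow and cardiac troponin C (4.10 ± 0.38, adjusted p = 6.23e-05), and Actn3, an alpha-actinin of fast fibres (1.71 ± 0.38, adjusted p = 0.0249), while Tcap, a Z-disc protein, differed by 1.55 ± 0.64 (adjusted p = 0.297). Tnnc1 read 1464 and 975 in E100 and 337 and 2011 in E81 with SRF-VP16, and between -207 and -106 with SRFdM-VP16.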

How the data were processed

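The authors deposited 1 linear intensity per probe set and array. How it was computed, background-corrected and scaled is not given in the sources used here. Each array's bright probe sets (over 10000) stood at 0.923 to 1.05 times those of the median array, so no further scaling was applied. From the deposited intensities, control probe sets (66) were left out, probe sets over the 40th percentile on 2 or more arrays were kept, and values were floored at 58 and taken to log2. One fit of all 23 arrays with a mean for each group was made with limma 3.58.1 (R 4.3.3), a variance trend on intensity, 11 residual degrees of freedom and two-sided tests, with p-values adjusted by Benjamini-Hochberg over 9643 probe sets and called at 5%. The number of arrays limits the precision. Gene symbols came from the platform annotation: 10141 probe sets had 1 symbol, 362 several and 1933 none, and 8120 of 8131 symbols matched the reference gene table (GRCm38.p6, used for names and promoters). All muscle actin probe sets were named, the 3 genes most like each, and the 3 list members with the smallest adjusted p in the -/- comparison. The members, lists and tests were chosen with earlier results of these data known. Alternatives covered scaling, floor, filter, the replicate number, the arrays in the fit, the control plasmid and leaving out arrays; the fit was tested on simulated data. Srf and Zyx were not analysed here. Some genes and a list that the naming rule covers are not reported here.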

Additional observations from a re-analysis of the deposited data

Results flagged for a closer look

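The effect of SRF-VP16 on Actc1 by its _f_at probe set differed between genotypes by limma's test of the difference itself. It was 3.44 ± 0.51 higher on the log2 scale in the -/- lines than over E99 and E14wt (adjusted p = 0.0139), with effects of 3.94 in E81, 3.47 in E100, 0.44 in E99 and 0.09 in E14wt. The call was lost with vector as the control (2.79, adjusted p = 0.0577) and without the E14wt control arrays numbered 2 (3.45, adjusted p = 0.0508). The other Actc1 probe set, _i_at, gave a difference of 1.11 ± 0.51 (adjusted p = 0.691).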

How the results depend on the processing

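Under 37 other settings the rises of Acta1 and Acta2 in the -/- lines kept their direction and call, with log2 changes of 5.08 to 9.87 for Acta1 (adjusted p up to 0.00262) and adjusted p up to 0.0353 for Acta2. Counts of the 5 probe sets called ran, leaving out 1 array at a time, from 4 to 5 in the -/- lines, 1 to 4 in E81, 3 to 4 in E100, 0 to 0 in E14wt and E99, 0 to 1 for -/- against wild type with SRF-VP16 and 1 to 2 for the difference between genotypes. A floor at the 60th percentile gave 2 for that difference, and vector as the control gave 0. The inverse hyperbolic sine without a floor gave 5 in E81. A fit of only the arrays compared, which has fewer degrees of freedom, gave 3 in the -/- lines, 0 in E81 and 0 in E100, with Actc1 _f_at at an adjusted p of 0.0612 in the -/- lines. Leaving out the E14wt control arrays numbered 2 gave 2 in E99. So it did with E81 SRFdM-VP16 array 1 also left out, a setting chosen after seeing the data. The shares of all probe sets called under these other settings are not reported here. Array numbers were not taken to pair the samples: deviations of same-numbered arrays within a line correlated at 0.248 in E100 and 0.264 to 0.306 in E81, but from -0.349 to 0.317 in E99 and -0.332 to 0.417 in E14wt, and no label says that a number marks a shared culture or day. The replicate block across all groups left 5 called in the -/- lines and gave 1 for -/- against wild type with SRF-VP16 (Actc1 _f_at, adjusted p = 0.0421), and the replicate block within each line left 5 in the -/- lines and 2 in E81, where Actg2 was not called (adjusted p = 0.0655).

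Some values changed sign, all of them uncalled. Division by array medians, with which the median over all probe sets was -0.16 in the -/- comparison, gave Actc1 _f_at -0.17 in E14wt and -0.15 in E99, Actg2 -0.063 in E99, Acta2 0.051 and Actg2 0.23 for SRFdM-VP16 against vector, and Acta2 0.14 and Actc1 _f_at -0.45 for E81 minus E100. Quantile normalization gave Acta2 0.027 between the control plasmids and Actc1 _f_at -0.30 for E81 minus E100. The inverse hyperbolic sine gave Acta1 -0.25 and Acta2 0.88 between the control plasmids, and Acta1 3.25 and Acta2 0.92 for E81 minus E100. The block across groups gave Acta2 0.15 between the control plasmids; the block within lines gave Acta1 -0.056, Acta2 0.021 and Actc1 _f_at -0.064 there, and Acta2 -0.92 for -/- against wild type with SRF-VP16. Without the E14wt control arrays numbered 2, Acta1 was -0.023 between the control plasmids and 0.023 for -/- against wild type with them, and Actc1 _f_at was -0.017 between the control plasmids once E81 SRFdM-VP16 array 1 was left out too. Leaving out 1 array at a time, Acta2 ran from -0.48 to 6.49, Actc1 _f_at from -0.12 to 0.31 and Actg2 from -1.36 to 0.15 in E14wt. Between the control plasmids Acta1 ran from -0.50 to 0.53, Acta2 from -0.88 to 0.87 and Actc1 _f_at from -0.11 to 0.30. Actc1 _i_at ran from -0.22 to 1.45 for -/- against wild type with SRF-VP16, and for E81 minus E100 Acta2 ran from -0.39 to 0.0092 and Actc1 _f_at from -0.36 to 1.30. The cause of these changes was not tested. Values at the floor have no order, so the size of each Acta1, Acta2 and Actc1 _i_at change depends on the floor.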
